A study of Mus musculus and Rattus norvegicus with 24 samples.

Results

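Hearts lacking the transcription factor ATF4 were compared after 7 days and after 3 days of pressure overload, across all genes. The comparison used the 6 libraries of conditional knockout (cKO) hearts after transverse aortic constriction (TAC), 3 at 7 d and 3 at 3 d, out of 24 samples in the series, 18 of them mouse hearts. TAC is a surgical band on the aorta that raises the pressure against which the left ventricle pumps. Every gene of the deposited count table was a member: 54532 gene IDs, of which 15535 had enough counts to be tested and held 99.9% of the counts.

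The groups were cKO TAC 7 d, set against cKO TAC 3 d, with cKO sham (the operation without the constriction) as the unloaded level of the same genotype. Ctrl TAC 7 d and ctrl TAC 3 d, from hearts of the ctrl genotype, were used for the difference between genotypes. Each group had 3 libraries of bulk RNA. Titles and design text give the genotype as a conditional knockout of ATF4; 1 label characteristic, headed overexpression, goes against that. The labels do not give the Cre driver, the cell type it acts in, or the age and sex of the mice. They do not say whether replicates were separate animals, and the p-values therefore rest on a spread between samples that may partly be technical.

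ATF4 is the transcription factor that the integrated stress response makes cells translate when protein synthesis is slowed, and it switches on genes for amino acid supply and redox balance. A heart under pressure overload commonly returns to a fetal gene programme, with natriuretic peptides and the slow myosin heavy chain, lays down extracellular matrix through its fibroblasts, and lowers genes of mitochondrial energy supply. Non-myocyte cells of the loaded heart can also re-enter the cell cycle.

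Atf4 itself (ENSMUSG00000042406, chromosome 15, 80255184 to 80257541, plus strand, GRCm38) was at 27.1, 31.3 and 27.0 CPM in the cKO TAC 7 d libraries, against 24.8, 27.1 and 24.8 CPM in the cKO TAC 3 d libraries. The ctrl libraries held 70.5, 80.0 and 70.3 CPM at 7 d and 91.0, 80.2 and 84.9 CPM at 3 d. All 6 cKO libraries thus lay below all 6 ctrl libraries, and Atf4 was not called between the 2 times in cKO hearts (log2 fold change 0.16 ± 0.18, adjusted p = 0.581). CPM is a gene's count relative to the library total, scaled by the TMM factor, and is not corrected for gene length.

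Depth was even, with totals of 15106975 to 18112798 counts per library. Some libraries stood apart from their groups. On the principal components of log2 CPM over the 18 hearts, the second held 11.3% of the variance and placed cKO TAC 3 d replicate 2 at -61.15. The first held 38.0% and placed cKO TAC 7 d replicate 2 at 57.0, with -38.8 on the second. It placed ctrl TAC 3 d replicate 3 at 90.9. The results below are therefore also given without both cKO replicate 2 libraries, and the genotype difference also without ctrl TAC 3 d replicate 3.

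Genes were called higher or lower where the adjusted p (edgeR's quasi-likelihood test, Benjamini-Hochberg over all genes tested) was under 0.05, and fold changes are log2 of cKO TAC 7 d over cKO TAC 3 d with their standard error. Between 7 d and 3 d, 1439 genes were called higher (9.26% of those tested) and 1598 lower (10.3%). Of these, 417 were at least 2-fold higher and 262 at least 2-fold lower. The groups did not overlap for 5706 genes (36.7%), among them 2873 of the called genes. Against sham hearts of the same genotype, cKO TAC 3 d had no gene called higher (0%) and none lower (0%) by edgeR, with 1311 genes at an unadjusted p under 0.05, and DESeq2 called 30. Against the same sham hearts, cKO TAC 7 d had 1770 genes called higher (11.4%) and 1610 lower (10.4%), or 2358 higher and 937 lower with libraries scaled by their totals alone. The 3 comparisons share libraries, so these counts stand side by side only.

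Without both replicate 2 libraries, 269 genes were called higher (1.70% of 15861 tested) and 282 lower (1.78%). Of these, 532 had been called in the same direction with all libraries, 262 higher and 270 lower, and no called gene changed sign. Each of the 6 libraries was also left out in turn, and 864 of the called genes kept their call every time, 373 higher and 491 lower. Libraries scaled by their totals alone gave 2258 higher and 840 lower and moved the median of all genes to 0.17, against 0.01 with TMM scaling. Changes below are relative to that TMM median.

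The called genes differed in length. The median gene length was 6.78 kb among genes called higher, 2.79 kb among genes called lower and 4.04 kb over all genes tested. The rank correlation of a gene's level with its length, relative to the mean of all hearts, was 0.206, 0.188 and 0.144 in the cKO TAC 7 d libraries, against -0.302, -0.171 and -0.189 in the cKO TAC 3 d libraries, a description across genes that share each library. It was also higher at 7 d in ctrl hearts, with 0.242, 0.238 and 0.0984 at 7 d, against -0.0624, -0.2215 and 0.00714 at 3 d. With gene length as an offset, 943 genes were called higher and 1424 lower. Its part in the results was not tested beyond that offset. Protein-coding genes took 1394 of the calls higher and 1465 of the calls lower, of 13509 tested. Long noncoding RNAs took 29 higher and 77 lower, of 1094 tested.

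**Figure D1:**
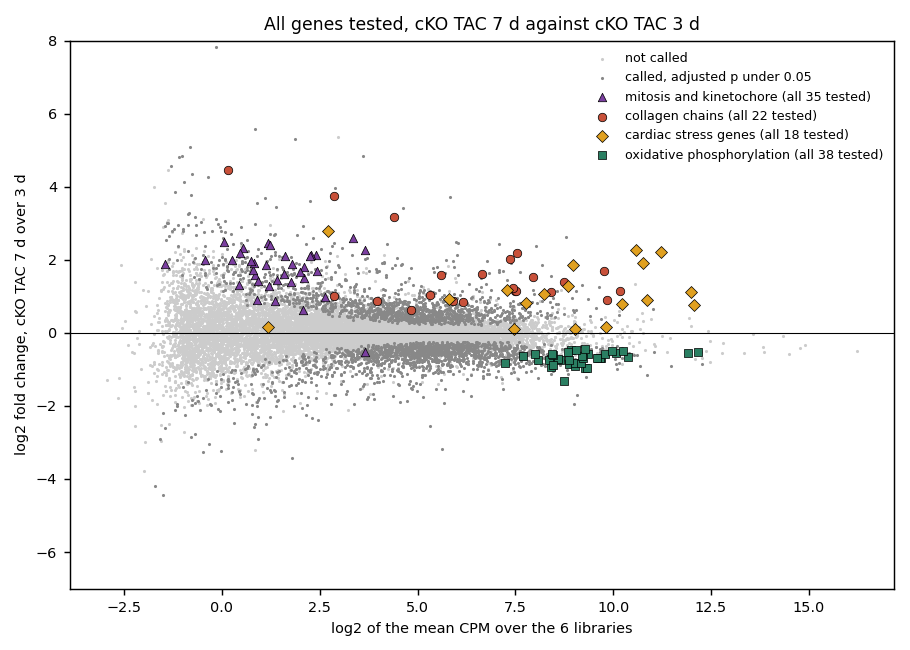
Log2 fold change of cKO TAC 7 d over cKO TAC 3 d (vertical axis) against log2 mean CPM (horizontal axis) for the 15535 genes tested, with members of 4 gene lists coloured. Mitosis, collagen and cardiac stress genes lie mostly above 0 and oxidative phosphorylation genes below 0.

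The smallest adjusted p of all genes tested was that of Hipk2, a kinase that acts on transcription factors and in the DNA damage response. Hipk2 (chromosome 6, 38694390 to 38876165, minus strand) stood at 62.1, 158 and 96.3 CPM in the cKO TAC 7 d libraries, against 6.42, 7.96 and 9.73 CPM in the cKO TAC 3 d libraries. The lowest library at 7 d was above the highest at 3 d, and the 3 d level was close to that of cKO sham hearts, at 6.73, 9.68 and 10.4 CPM. The log2 fold change was 3.71 ± 0.37 (adjusted p = 0.00028), and 3.29 without both replicate 2 libraries (adjusted p = 0.00749). Ctrl hearts showed a 7 d over 3 d change of 3.33, and the difference between genotypes was not called (0.38 ± 0.49, adjusted p = 0.614).

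Of 18 cardiac stress genes, 8 were called higher and none lower, with a median log2 fold change of 0.99 against 0.01 over all genes. Their summed level was 22650, 42300 and 19610 CPM at 7 d, against 7247, 16000 and 14200 CPM at 3 d. Replicate 2 was the highest library of its group at both times. With both replicate 2 libraries left out, 3 were called higher, with a median of 1.01.

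The natriuretic peptide gene Nppa, whose product is a hormone of stretched atria and of the overloaded ventricle, had 2626, 4030 and 1538 CPM at 7 d, against 308, 851 and 1035 CPM at 3 d. The groups did not overlap, and Nppa was called higher (1.90 ± 0.58, adjusted p = 0.0302), but not without both replicate 2 libraries (1.63, adjusted p = 0.183). Nppb, the gene of the B-type peptide, had 572, 1393 and 886 CPM at 7 d, against 233, 1386 and 913 CPM at 3 d. These groups overlapped across nearly their whole range, and the log2 fold change of Nppb was 0.17 ± 0.44 (adjusted p = 0.815). Replicate 1 at 3 d was the low library for both peptides.

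Myh7, which encodes the slow myosin heavy chain of the fetal ventricle, had 2344, 8171 and 1239 CPM at 7 d, against 361, 1518 and 656 CPM at 3 d. The groups overlapped, because replicate 3 at 7 d was below replicate 2 at 3 d, yet Myh7 was called higher (2.21 ± 0.58, adjusted p = 0.0171) and remained so without both replicate 2 libraries (1.82, adjusted p = 0.0325). Myh6, the adult fast chain, was at 27230, 15740 and 29110 CPM at 7 d, against 30820, 33390 and 31630 CPM at 3 d (-0.41 ± 0.28, adjusted p = 0.317). Both genes are near-identical over long stretches, so reads that fit both could have been counted to either. Acta1, the skeletal muscle actin of the stressed heart, did not pass the test (0.91 ± 0.40, adjusted p = 0.119), nor did Ankrd1, a titin-binding stress protein (1.13 ± 0.41, adjusted p = 0.059).

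Xirp2, an actin-binding protein of the intercalated disc, had 1883, 4373 and 1396 CPM at 7 d, against 353, 406 and 840 CPM at 3 d. It rose in every library beyond the 3 d range (2.26 ± 0.43, adjusted p = 0.00419), with 1.46 and an adjusted p of 0.0702 without both replicate 2 libraries. Fhl1, a LIM protein of the titin spring, rose by 1.85 ± 0.36 (adjusted p = 0.00419) and kept its call without both replicate 2 libraries (1.49, adjusted p = 0.0273). Ankrd2, a relative of Ankrd1 from slow skeletal muscle, rose by 2.78 ± 0.56 from a low level (adjusted p = 0.00496). The median of the stress list against sham was 0.82 at 3 d with no member called, and 1.87 at 7 d with 16 called higher. At 3 d against sham the medians were 0.07 for collagen chains and 0.20 for mitosis genes, none of them called.

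Of 20 sarcomere and Z-disc genes, 1 was called higher (Myh7) and 1 lower, against 3 higher and 5 lower by DESeq2 and 5 higher and 1 lower with library totals. With TMM scaling both edgeR counts were below the shares over all genes tested, 9.26% higher and 10.3% lower. Leaving out both replicate 2 libraries left 1 called higher, Myh7, and none lower. The gene called lower was Tnni3, cardiac troponin I, with 1990, 1593 and 2357 CPM at 7 d, against 3870, 3887 and 3355 CPM at 3 d (-0.90 ± 0.27, adjusted p = 0.0296). It was not called with the length offset (adjusted p = 0.0553) or without both replicate 2 libraries (adjusted p = 0.211).

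Of 15 calcium handling genes, 2 were called higher and 2 lower, and 1 higher (Slc8a1) and none lower without both replicate 2 libraries. With all libraries these counts were near the shares over all genes tested, 9.26% higher and 10.3% lower. Slc8a1, the sodium-calcium exchanger that removes calcium from the myocyte, had 239, 426 and 358 CPM at 7 d, against 86.5, 212 and 158 CPM at 3 d. It rose by 1.16 ± 0.26 (adjusted p = 0.00801), and the groups did not overlap. Pln, phospholamban, the brake on the calcium pump of the sarcoplasmic reticulum, had 913, 559 and 1011 CPM at 7 d, against 1476, 1689 and 1205 CPM at 3 d. It fell by 0.82 ± 0.25 (adjusted p = 0.031), with replicate 2 the lowest library at 7 d and the highest at 3 d, and was not called without both (-0.48, adjusted p = 0.3). The gene of that pump, Atp2a2, did not pass the test (-0.56 ± 0.28, adjusted p = 0.173).

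Among 20 cardiac ion channel genes, 2 were called higher and 6 lower, with a median of -0.33, and 1 higher and 2 lower without both replicate 2 libraries. Hcn2, a pacemaker channel, had 25.3, 18.3 and 20.6 CPM at 7 d, against 45.0, 39.0 and 37.7 CPM at 3 d, and fell by 0.92 ± 0.15 (adjusted p = 0.00224). Kcnip2, an accessory subunit of the channels of the transient outward potassium current, which Kcnd2 helps form, fell by 1.55 ± 0.36 (adjusted p = 0.00958). Kcnd2 fell by 1.16 ± 0.33 (adjusted p = 0.023), although its groups overlapped. Hcn2 and Kcnd2 kept their calls without both replicate 2 libraries, and Kcnip2 did not (adjusted p = 0.0725).

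**Figure D2:**
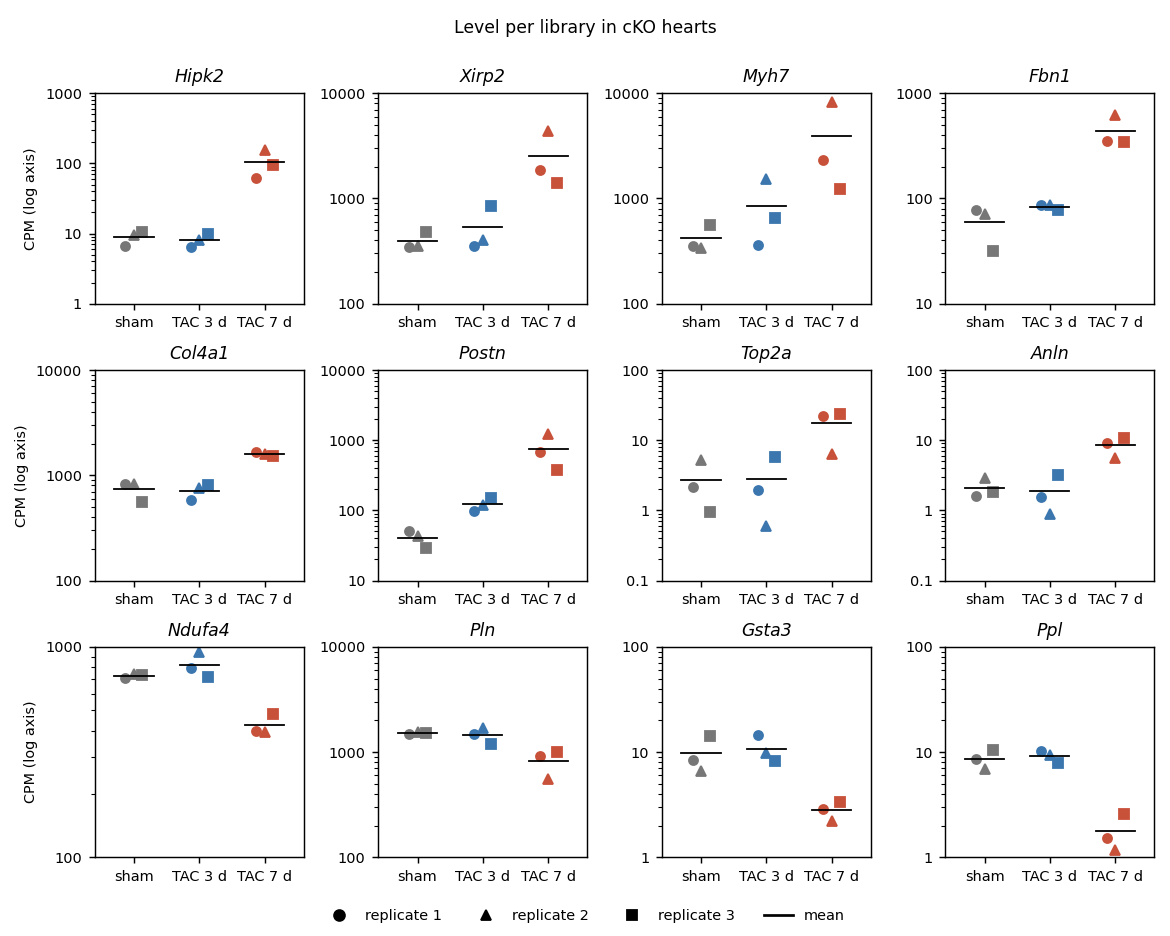
CPM on a log axis of 12 genes in cKO hearts, in sham, TAC 3 d and TAC 7 d libraries (circle replicate 1, triangle replicate 2, square replicate 3; the line is the mean of 3). For Hipk2 the 7 d libraries lie at 62.1 to 158 CPM, above all 3 d libraries, and for Ppl at 1.17 to 2.57 CPM, below all of them, while the Myh7 groups overlap.

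Extracellular matrix genes rose together. Of 22 collagen chain genes, 17 were called higher and none lower, with a median log2 fold change of 1.19. Their summed level was 7955, 8265 and 6154 CPM at 7 d, against 2865, 3002 and 3273 CPM at 3 d, and 3124, 3122 and 1929 CPM in cKO sham hearts. Every 7 d library was above every 3 d library, and this held for each of the 22 chains. Over all genes tested, the groups did not overlap for 36.7%. Without both replicate 2 libraries 4 chains were called higher (Col4a1, Col4a2, Col6a3 and Col8a1), with a median of 1.09. The number fell to 7 when the least favourable single library was left out, and was 13 with the length offset.

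Col4a1, a chain of the basement membrane network, had 1662, 1587 and 1536 CPM at 7 d, against 576, 758 and 814 CPM at 3 d. The libraries of each time were close together and far from the other time (1.16 ± 0.19, adjusted p = 0.00225; 1.20 and adjusted p = 0.0273 without both replicate 2 libraries). Col6a3, a chain of the microfibrils around cells, rose by 1.63 ± 0.31 (adjusted p = 0.00387). Col8a1, a short-chain collagen made in injured vessels and hearts, rose by 2.20 ± 0.40 (adjusted p = 0.00358). Col3a1, a fibril collagen, had 1423, 1568 and 1002 CPM at 7 d, against 489, 346 and 396 CPM at 3 d, and rose by 1.70 ± 0.45 (adjusted p = 0.0183). The main fibril chains Col1a1 (1.11 ± 0.53, adjusted p = 0.144) and Col1a2 (1.39 ± 0.49, adjusted p = 0.0576) did not pass the test, although their groups did not overlap.

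Of 32 matrix glycoprotein and matricellular genes, 18 were called higher and 1 lower, with a median of 1.50. Fbn1 (chromosome 2, 125300594 to 125507993, minus strand) encodes fibrillin-1, the scaffold of elastic microfibrils. It had 353, 618 and 345 CPM at 7 d, against 86.2, 87.2 and 77.6 CPM at 3 d. The 3 d libraries lay within a narrow band near the sham level of 77.6, 71.6 and 31.6 CPM, and Fbn1 rose by 2.39 ± 0.39 (adjusted p = 0.00225; 2.09 and adjusted p = 0.0287 without both replicate 2 libraries). Vcan, the proteoglycan versican, rose by 1.63 ± 0.24 (adjusted p = 0.00164). Those 2 were the members called without both replicate 2 libraries.

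Postn, periostin, which activated fibroblasts secrete, had 678, 1224 and 373 CPM at 7 d, against 97.6, 120 and 149 CPM at 3 d. It rose by 2.63 ± 0.63 (adjusted p = 0.011) with no overlap, and had 2.09 and an adjusted p of 0.118 without both replicate 2 libraries. Comp, a cartilage matrix protein that bridges collagen fibrils, had 51.0, 75.7 and 8.49 CPM at 7 d, against 4.30, 4.88 and 3.49 CPM at 3 d (3.42 ± 0.76, adjusted p = 0.00804). Replicate 3 at 7 d lay far below the other 7 d libraries and just above those at 3 d. Fmod, fibromodulin, a regulator of fibril assembly, had the largest rise among the called genes named by rule, with 22.2, 46.2 and 2.45 CPM at 7 d, against 0.873, 0.376 and 1.12 CPM at 3 d (4.84 ± 1.33, adjusted p = 0.0205). The next were Cthrc1 (3.98 ± 1.18, adjusted p = 0.0278), a secreted protein of activated fibroblasts, and Col8a2 (3.75 ± 1.12, adjusted p = 0.0282), the partner chain of Col8a1. In these 3 genes too replicate 3 was the low library at 7 d, and none was called without both replicate 2 libraries. Fbln1, a basement membrane glycoprotein, was the member that fell (-0.61 ± 0.18, adjusted p = 0.0261).

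Of 22 crosslinking and collagen processing genes, 9 were called higher and none lower, with a median of 0.68, and 3 were called higher without both replicate 2 libraries. P4ha1, a prolyl hydroxylase that collagen needs to fold, had 89.4, 86.1 and 80.2 CPM at 7 d, against 45.8, 38.5 and 48.5 CPM at 3 d, and rose by 0.94 ± 0.12 (adjusted p = 0.000751). Loxl2, a lysyl oxidase that crosslinks collagen, had 93.7, 116 and 77.8 CPM at 7 d, against 22.3, 27.3 and 32.2 CPM at 3 d (1.81 ± 0.26, adjusted p = 0.0016). Both kept their calls without both replicate 2 libraries, with adjusted p of 0.0166 for P4ha1 and 0.0273 for Loxl2. Of 25 matrix protease genes, 5 were called higher and 1 lower, led by Adam12 (2.68 ± 0.51, adjusted p = 0.00409), a metalloprotease that sheds growth factors. Leaving out both replicate 2 libraries left 2 proteases called higher, Adam12 and Adamts4, and none lower.

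Of 21 genes of TGF-beta ligands and regulators, the family that drives matrix production, 5 were called higher and none lower. Tgfb2, a ligand, rose by 2.01 ± 0.44 (adjusted p = 0.00745), and Fstl1, a secreted binder of the family, rose by 1.56 ± 0.37 (adjusted p = 0.0103). Neither was called without both replicate 2 libraries, where 1 other member, Gdf6, was called higher. Of 31 cytoskeleton genes, 10 were called higher and 1 lower, and 3 higher and none lower without both. Flna, filamin A, which links actin filaments, rose by 0.84 ± 0.17 (adjusted p = 0.00452; 1.00 without both replicate 2 libraries, adjusted p = 0.0273). The member that fell was Acta2, smooth muscle actin, with 140, 98.9 and 86.3 CPM at 7 d, against 168, 200 and 235 CPM at 3 d (-0.89 ± 0.29, adjusted p = 0.0406). Acta2 was not called with the length offset (adjusted p = 0.0881).

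Markers of the cells that make matrix moved with these genes. Of 14 activated fibroblast markers, 9 were called higher and 1 (Acta2) lower, with a median of 1.83, and 7 of the 9 are members of the matrix lists above. None of the 14 was called without both replicate 2 libraries, with a median of 1.45. Their summed level ranged from 750 to 2470 CPM at 7 d and from 384 to 551 CPM at 3 d. Meox1, a homeobox factor of activated fibroblasts that is in neither matrix list, had 56.3, 104 and 36.9 CPM at 7 d, against 15.8, 16.5 and 24.7 CPM at 3 d (1.78 ± 0.35, adjusted p = 0.00452). Of 14 resting fibroblast markers 2 were called higher and 2 lower, none without both replicate 2 libraries, and their sums of 2308 to 3452 CPM at 7 d and 2536 to 3080 CPM at 3 d overlapped. Over all genes tested, 9.26% were called higher and 10.3% lower. In RNA of whole tissue, more cells of a type and more RNA per cell cannot be told apart, here or below.

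**Figure D3:**
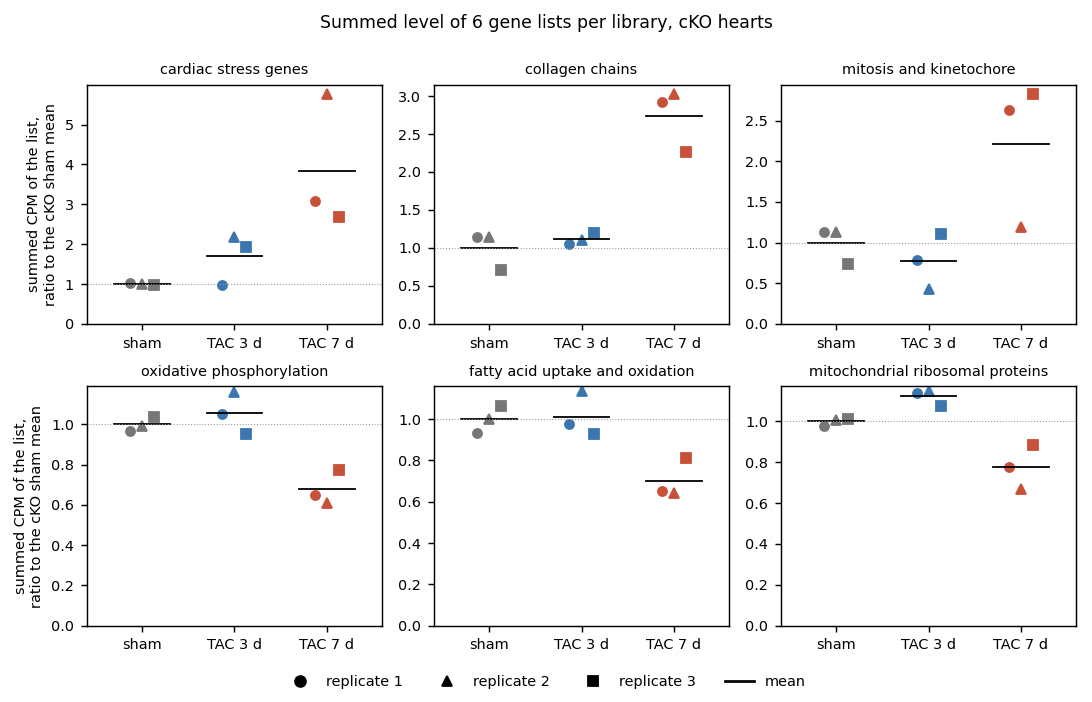
Summed CPM of 6 gene lists in each cKO library, divided by the mean of the cKO sham libraries, in sham, TAC 3 d and TAC 7 d hearts. Collagen chain sums at 3 d (2865 to 3273 CPM) lie near sham and at 7 d (6154 to 8265 CPM) above it, and mitosis sums at 3 d (35.2 to 90.5 CPM) lie no higher than the highest sham library (92.5 CPM).

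Cell cycle genes rose from a sham-like level as well. Of 35 mitosis and kinetochore genes, 26 were called higher and none lower, with the highest median of the lists plotted (1.85). Their summed level was 215, 96.9 and 230.5 CPM at 7 d, against 63.8, 35.2 and 90.5 CPM at 3 d, and 91.9, 92.5 and 60.5 CPM in cKO sham hearts. Replicate 2 was the lowest library at both times, and at 7 d it was only just above the highest 3 d library. Without both replicate 2 libraries 14 were called higher, the most of any list, with a median of 1.79, and the count ran from 10 to 28 as single libraries were left out. With the length offset 25 were called higher.

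Top2a, the topoisomerase that untangles chromosomes before they part, had 22.4, 6.36 and 23.5 CPM at 7 d, against 1.93, 0.601 and 5.85 CPM at 3 d. Replicate 2 at 7 d just exceeded replicate 3 at 3 d, and Top2a rose by 2.58 ± 0.61 (adjusted p = 0.0103; 2.54 and adjusted p = 0.0273 without both replicate 2 libraries). Anln, anillin, the scaffold of the ring that divides the cell, had 9.14, 5.66 and 10.8 CPM at 7 d, against 1.56, 0.901 and 3.21 CPM at 3 d (2.14 ± 0.40, adjusted p = 0.00387). Anln kept its call with each library left out and without both replicate 2 libraries (2.05, adjusted p = 0.0273). Cenpe, a kinetochore motor, rose by 2.48 ± 0.52 (adjusted p = 0.00651). Mki67, the proliferation antigen Ki-67, rose by 2.26 ± 0.52 (adjusted p = 0.00943), and Cdk1, the kinase that starts mitosis, by 2.12 ± 0.59 (adjusted p = 0.0211). Kif20a, a cytokinesis motor, was also called (1.40 ± 0.26, adjusted p = 0.00355), but it overlaps Cdc23 on the opposite strand over 1271 bases, and the library kit does not mark strand, so reads of the pair cannot be told apart.

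Of 34 DNA replication genes, 7 were called higher and 1 lower, with a median of 0.78. Tk1, thymidine kinase, rose by 0.95 ± 0.24 (adjusted p = 0.0133), E2f1, a factor that turns on replication genes, by 1.68 ± 0.41 (adjusted p = 0.0117), and Mcm6, a subunit of the replicative helicase, by 0.79 ± 0.25 (adjusted p = 0.0371). Mcm6 had 25.1, 11.9 and 18.7 CPM at 7 d, against 10.7, 7.88 and 13.6 CPM at 3 d, and its groups overlapped. The other 5 Mcm2 to Mcm7 subunits measured did not pass the test. The number called higher ran from 1 without cKO TAC 3 d replicate 1 to 16 without cKO TAC 7 d replicate 2, and was 12 by DESeq2. Leaving out both replicate 2 libraries gave 4 called higher and 1 lower.

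Mitosis and replication genes are known to carry different promoter elements, and the promoters of 4 called members are shown as examples of those elements. Most of the replication list was not called. RefSeq promoters (GRCm38.p6, 250 bases before to 50 after the start, 300 in all) were found by symbol for 27 of the 35 mitosis genes and 27 of the 34 replication genes. Capitals mark matches, on either strand, to the cell cycle element CHR (TTTGAA or TTCGAA), the CCAAT box (CCAAT) or the E2F motif (TTTCCCGC or TTTGGCGC), which do not overlap in these 4. Top2a and Anln are among the genes named by rule, and Cdk1 and Mcm6 were chosen after their values were seen. The sequences run 5′ to 3′ on the minus strand of chr11:99024140-99024439 (Top2a), chr9:22389157-22389456 (Anln), chr10:69352863-69353162 (Cdk1) and chr1:128359656-128359955 (Mcm6).
Top2a: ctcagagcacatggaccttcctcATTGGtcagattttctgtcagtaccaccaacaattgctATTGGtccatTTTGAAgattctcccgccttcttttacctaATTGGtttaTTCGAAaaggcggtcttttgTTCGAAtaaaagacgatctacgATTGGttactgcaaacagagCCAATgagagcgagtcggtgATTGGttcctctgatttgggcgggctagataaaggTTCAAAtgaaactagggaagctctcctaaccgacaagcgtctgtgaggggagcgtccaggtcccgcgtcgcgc
Anln: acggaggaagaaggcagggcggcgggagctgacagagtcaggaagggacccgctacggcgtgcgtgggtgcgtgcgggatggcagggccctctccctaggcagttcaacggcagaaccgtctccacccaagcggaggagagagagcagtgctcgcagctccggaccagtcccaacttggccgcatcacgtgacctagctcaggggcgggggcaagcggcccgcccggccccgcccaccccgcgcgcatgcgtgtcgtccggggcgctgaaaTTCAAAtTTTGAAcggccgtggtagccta
Cdk1: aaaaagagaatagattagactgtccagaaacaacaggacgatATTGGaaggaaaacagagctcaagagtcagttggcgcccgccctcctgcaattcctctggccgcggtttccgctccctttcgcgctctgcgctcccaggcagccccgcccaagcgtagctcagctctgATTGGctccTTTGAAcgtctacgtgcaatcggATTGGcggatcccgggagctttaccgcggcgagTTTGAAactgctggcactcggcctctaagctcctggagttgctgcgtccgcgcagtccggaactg
Mcm6: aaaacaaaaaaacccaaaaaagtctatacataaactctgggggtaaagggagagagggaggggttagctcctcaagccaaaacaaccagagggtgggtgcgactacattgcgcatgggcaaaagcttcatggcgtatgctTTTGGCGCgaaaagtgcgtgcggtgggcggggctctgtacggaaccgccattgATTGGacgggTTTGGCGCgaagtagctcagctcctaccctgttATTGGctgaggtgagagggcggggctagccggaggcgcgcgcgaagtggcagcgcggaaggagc
The Top2a promoter held 4 CHR and 6 CCAAT matches, that of Cdk1 2 and 3, and that of Anln 2 CHR and no CCAAT match. The Mcm6 promoter held 2 CCAAT and 2 E2F matches and no CHR.

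Over the lists, a CHR match stood in 21 of the 27 mitosis promoters (77.8%) and in 4 of the 27 replication promoters (14.8%), against 19.4% of all 27025 promoters. Of the mitosis genes called higher, 17 of 21 held one, and of those not called 4 of 6. The E2F motif stood in none of the 27 mitosis promoters and in 9 of the 27 replication promoters (33.3%), against 1.63% of all. Among the replication genes it stood in 1 of the 6 promoters of genes called higher (16.7%), that of Mcm6, and in 8 of the 20 of genes not called (40.0%). CCAAT stood in 20 mitosis (74.1%) and 17 replication promoters (63.0%), against 37.9% of all. The TEAD motif CATTCC, searched for as well, stood in 3 promoters of each list (11.1%), against 14.6% of all, and in 7 of the 123 named genes with a promoter (5.69%). These shares describe letters in the window and were not tested.

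Genes of mitochondrial energy supply were lower. Of 38 nuclear genes for oxidative phosphorylation, 32 were called lower and none higher, with a median of -0.69. The groups did not overlap for any of the 38, against 36.7% of all genes tested. Their summed level was 21890, 20550 and 25980 CPM at 7 d, against 35310, 39070 and 32090 CPM at 3 d and 32620, 33440 and 34870 CPM in cKO sham hearts. Without both replicate 2 libraries none was called, with a median of -0.52. The count of members called lower ran from 8 to 33 as single libraries were left out, and was 25 with the length offset.

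Ndufa4, a subunit of the respiratory chain, had 396, 393 and 481 CPM at 7 d, against 792, 945 and 723 CPM at 3 d. All 7 d libraries lay well below the 3 d libraries, with an adjusted p of 0.00415 (-0.95 ± 0.18) and of 0.0623 without both replicate 2 libraries. Cox7a1, the muscle form of a cytochrome oxidase subunit, fell by 1.31 ± 0.27 (adjusted p = 0.00604), and Atp5j, a part of the ATP synthase stalk, by 0.84 ± 0.17 (adjusted p = 0.00496), with 397 exon bases shared with Gabpa on the opposite strand. Of 13 transcripts of the mitochondrial genome 3 were called lower, and 1 (mt-Atp8) without both replicate 2 libraries. On the same strand mt-Atp8 shares 43 bases with mt-Atp6, and their mean counts were 397.7 and 10752.7. All genes of the mitochondrial chromosome together took a share of all counts of 17.5%, 14.5% and 20.4% at 7 d, against 21.1%, 22.2% and 20.1% at 3 d, and these ranges overlap.

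Of 24 genes for the TCA cycle and pyruvate oxidation, 14 were called lower and 1 higher, with a median of -0.56. Mpc1, a subunit of the pyruvate carrier of mitochondria, had 52.9, 47.6 and 51.1 CPM at 7 d, against 68.9, 101 and 84.4 CPM at 3 d (-0.74 ± 0.16, adjusted p = 0.00592). Pdk2, a kinase that shuts pyruvate dehydrogenase, fell by 0.86 ± 0.18 (adjusted p = 0.00663). The member called higher was Pdk1, another such kinase (0.28 ± 0.09, adjusted p = 0.0333), which was not called with the length offset (adjusted p = 0.321). Of 33 genes for fatty acid uptake and oxidation, 12 were called lower and none higher, with a median of -0.57. Etfa, which passes electrons from fat oxidation to the respiratory chain, had 271, 263 and 353 CPM at 7 d, against 595, 713 and 498 CPM at 3 d (-1.02 ± 0.23, adjusted p = 0.00858). Neither list had a member called without both replicate 2 libraries.

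Of 24 genes for the breakdown of branched-chain amino acids, 16 were called lower and none higher, with a median of -0.55. Bcat2, the mitochondrial aminotransferase that starts this pathway, had 76.4, 81.8 and 86.3 CPM at 7 d, against 115, 152 and 117 CPM at 3 d. It fell by 0.65 ± 0.12 (adjusted p = 0.00351) and was the member still called without both replicate 2 libraries (-0.51, adjusted p = 0.0401). Bckdhb, a subunit of the next enzyme, fell by 1.01 ± 0.22 (adjusted p = 0.00706). Of 30 mitochondrial ribosomal protein genes, 18 were called lower and none higher, with a median of -0.56 and 2 called lower without both replicate 2 libraries.

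Of 24 genes for glucose uptake and glycolysis, 1 was called higher and 5 lower, with a median of -0.13 that changes sign when libraries are scaled by their totals alone. Without both replicate 2 libraries 1 was called higher (Pfkp) and none lower. Of 15 genes of the creatine and adenylate energy reserve, 4 were called lower and none higher, and none in either direction without both. Of 15 ventricular cardiomyocyte markers 2 were called lower (Tnni3 and Pln, neither without both replicate 2 libraries) and none higher, with a median of -0.53. Their summed level was 71120 to 88760 CPM at 7 d, against 99800 to 112100 CPM at 3 d, and the ranges did not overlap. The part of this lower myocyte signal in the lower metabolic levels was not tested.

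**Figure D4:**
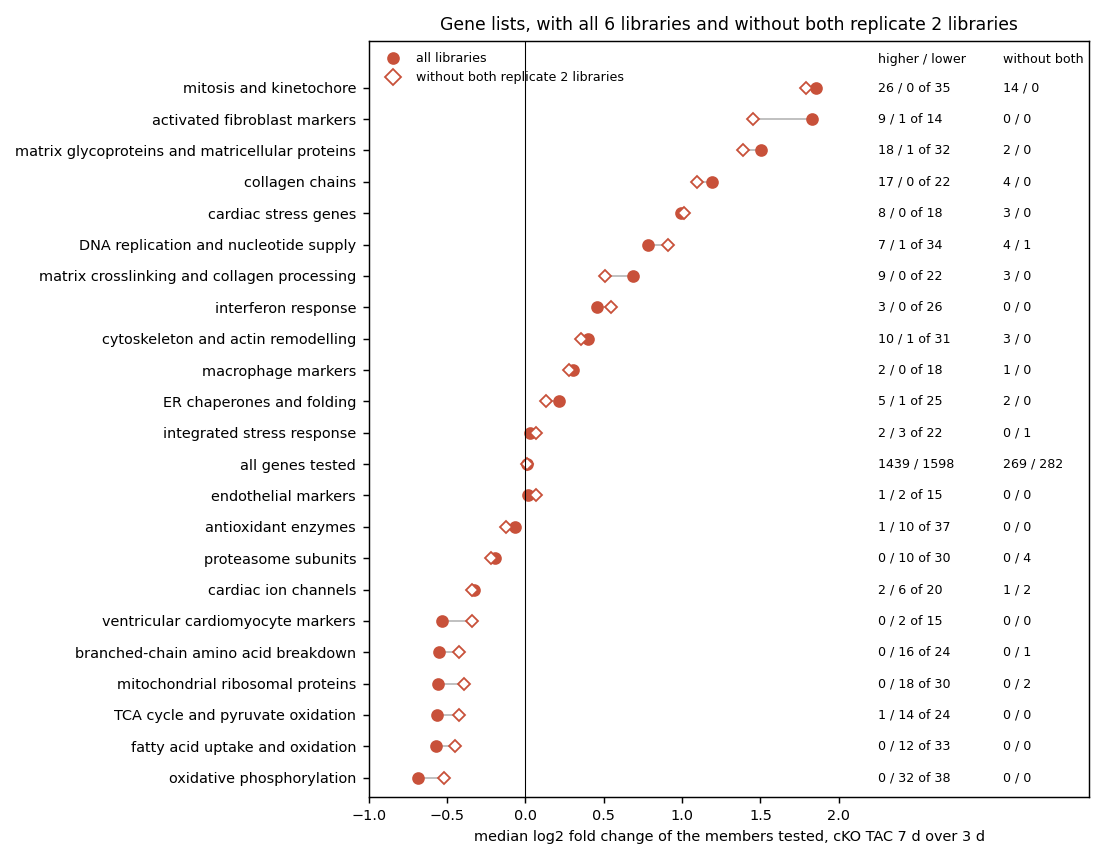
Median log2 fold change of cKO TAC 7 d over cKO TAC 3 d for the members of 22 gene lists and for all genes tested, with all libraries (filled circles) and without both replicate 2 libraries (open diamonds), with counts of members called higher and lower. With all libraries the medians run from 1.85 for mitosis to -0.69 for oxidative phosphorylation, and for mitosis 14 members are called higher without both replicate 2 libraries, against 26 with them.

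Of 22 integrated stress response genes, the programme that ATF4 is known to serve, 2 were called higher and 3 lower, with a median of 0.03. Those were near the shares over all genes tested, 9.26% higher and 10.3% lower. The counts were 4 higher and 2 lower with library totals, and none higher and 1 lower (Ddit3) without both replicate 2 libraries. Ddit3, the stress factor CHOP, had 15.2, 14.0 and 11.8 CPM at 7 d, against 22.1, 22.8 and 19.5 CPM at 3 d, and fell by 0.65 ± 0.11 (adjusted p = 0.00303; -0.62 and adjusted p = 0.0325 without both replicate 2 libraries). It shares 68 bases with Mars on the opposite strand. Cebpb, a bZIP partner of ATF4, fell by 1.28 ± 0.29 (adjusted p = 0.00924), with an overlap of 312 bases with Tmem189. Eif2ak2, the kinase PKR that starts the response to double-stranded RNA, rose by 0.81 ± 0.18 (adjusted p = 0.00764). Gdf15, a stress hormone, had 20.9, 54.1 and 11.2 CPM at 7 d, against 2.06, 7.06 and 10.5 CPM at 3 d (2.13 ± 0.74, adjusted p = 0.0518).

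Of 20 cytosolic aminoacyl-tRNA synthetase genes 1 was called higher and none lower, and of 16 serine, glycine and one-carbon genes likewise 1 was called higher and none lower. Of 17 amino acid transporter genes 4 were called higher and none lower, among them Slc1a4 (0.98 ± 0.31, adjusted p = 0.0374), a carrier of serine and alanine. None of these 3 lists had a member called without both replicate 2 libraries. Of 25 genes for folding in the endoplasmic reticulum, 5 were called higher and 1 lower, and 2 higher (Sel1l and Ssr1) and none lower without both. Sel1l, of the complex that removes misfolded proteins, rose by 0.50 ± 0.08 (adjusted p = 0.00224), and Herpud1, of the same complex, fell by 1.26 ± 0.26 (adjusted p = 0.00559).

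Of 37 antioxidant enzyme genes, 10 were called lower and 1 higher with TMM scaling, and 6 lower and 4 higher with library totals, where the sign of the small median also changed. Prdx5, a peroxiredoxin of mitochondria, had 224, 216 and 279 CPM at 7 d, against 420, 434 and 348 CPM at 3 d (-0.74 ± 0.16, adjusted p = 0.00739). Fth1, the ferritin heavy chain that stores iron, fell by 0.70 ± 0.14 (adjusted p = 0.00565), and Gpx4, which reduces lipid peroxides, fell by 0.52 ± 0.12 (adjusted p = 0.00785). No member was called without both replicate 2 libraries. Of 30 proteasome subunit genes 10 were called lower and none higher, and 4 were called lower without both replicate 2 libraries. Psmb3 had 53.3, 56.5 and 53.6 CPM at 7 d, against 77.1, 87.0 and 78.7 CPM at 3 d, and its fall of 0.57 ± 0.08 (adjusted p = 0.00155) held without both replicate 2 libraries (adjusted p = 0.0259).

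Among the largest falls of the genes named by rule were some outside the lists. Ppl (chromosome 16, 5086291 to 5132421, minus strand) encodes periplakin, a linker of cytoskeleton and junctions. It had 1.54, 1.17 and 2.57 CPM at 7 d, against 10.3, 9.39 and 7.82 CPM at 3 d and 8.53, 6.87 and 10.5 CPM in cKO sham hearts. The groups were far apart (-2.38 ± 0.39, adjusted p = 0.00237; -2.14 and adjusted p = 0.0297 without both replicate 2 libraries). Ces1d, a carboxylesterase that splits stored lipid, had 17.1, 6.65 and 10.8 CPM at 7 d, against 106, 26.4 and 71.3 CPM at 3 d (-2.56 ± 0.59, adjusted p = 0.0096), with replicate 2 the lowest library of each time. Gsta3, a glutathione transferase, had 2.86, 2.22 and 3.35 CPM at 7 d, against 14.5, 9.76 and 8.21 CPM at 3 d (-1.94 ± 0.35, adjusted p = 0.00338). Cntfr, the receptor chain for ciliary neurotrophic factor, fell by 2.01 ± 0.37 (adjusted p = 0.00385). These 4 genes kept their calls with each library left out and without both replicate 2 libraries. The rule that named the largest falls required groups that do not overlap, and part of it also a call without both. Those traits are therefore no separate support.

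Of 18 macrophage markers 2 were called higher and none lower, and their sums were 565 to 608 CPM at 7 d and 372 to 578 CPM at 3 d. The count called higher was near the share over all genes tested, 9.26%. The pair called were Cx3cr1 and Ccr2, chemokine receptors of monocyte-derived macrophages. Cx3cr1 had 14.7, 12.5 and 14.7 CPM at 7 d, against 2.62, 1.73 and 3.94 CPM at 3 d. It rose by 2.31 ± 0.46 (adjusted p = 0.00496) and kept its call without both replicate 2 libraries (2.16, adjusted p = 0.0486). Ccr2 rose by 2.37 ± 0.60 (adjusted p = 0.0145) and did not keep it (1.89, adjusted p = 0.12). Of 24 genes of chemokines and their receptors 4 were called higher and 1 lower, and 1 higher (Cx3cr1) and none lower without both. Of 25 complement genes none was called in either direction by edgeR, nor with any single library left out.

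Of 26 interferon response genes 3 were called higher, of 22 acute inflammation genes 1 was called higher and 1 lower, and of 7 B cell markers tested 2 were called higher. For interferon and inflammation genes these counts were near or below the shares over all genes tested, 9.26% higher and 10.3% lower. Leaving out both replicate 2 libraries left no interferon or inflammation gene called and 1 B cell marker, Cd22. The B cell markers called were Cd22 (3.29 ± 0.62, adjusted p = 0.00409) and Blk (1.76 ± 0.38, adjusted p = 0.00706), a B cell kinase. Cd79a, part of the B cell receptor that defines the lineage, was near 0 at both times, with 0.441, 0.350 and 0.419 CPM at 7 d, against 0.686, 0 and 0.225 CPM at 3 d. Neutrophil markers summed to 9.41 to 43.0 CPM at 7 d and 7.93 to 66.6 CPM at 3 d. Of 15 endothelial markers 1 was called higher and 2 lower (none without both replicate 2 libraries), with sums of 1799 to 2494 CPM at 7 d and 2403 to 2483 CPM at 3 d. The endothelial counts were also near the shares over all genes tested. Red blood cell markers summed to 284 to 374 CPM at 7 d and 11.8 to 284 CPM at 3 d, and the lowest library was cKO TAC 3 d replicate 2. Among the defining markers of other cells, Ms4a2 (mast cells) and Ucp1 (brown fat) were at 0 in all 6 libraries.

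The same interval in ctrl hearts gave 1080 genes called higher (6.95%) and 1213 lower (7.81%). With library totals 542 were called higher and 2068 lower there. When the ctrl libraries of both times were fitted alone 39 genes were called, 35 higher and 4 lower, and 523 were called with ctrl TAC 7 d replicate 2 left out. The difference between genotypes, the 7 d over 3 d change in cKO minus that in ctrl, was called higher for 1713 genes (11.0%) and lower for 1553 (10.0%). With library totals it was called higher for 3375 genes and lower for 677, and the median of all genes was 0.31. Of the 1439 genes called higher in cKO hearts, 242 were called higher in ctrl hearts as well (16.8% of the cKO list and 22.4% of the ctrl list), and 195 were called lower there (13.5% and 16.1%). For all of those 195 the genotype difference was called, which was nearly fixed by picking genes called in opposite directions. Of the 1598 genes called lower in cKO hearts, 143 were called lower in ctrl hearts (8.95% and 11.8%) and 63 higher (3.94% and 5.83%). With ctrl TAC 3 d replicate 3 left out, the genotype difference was called for 1131 genes higher and 938 lower. With both cKO replicate 2 libraries left out too, it was called for 753 higher and 517 lower.

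Several lists with medians above 0 in cKO hearts had medians below 0 in ctrl hearts. For the mitosis genes the median was 1.85 in cKO hearts and -1.12 in ctrl hearts, and the genotype difference was called higher for 33 of 35, or 31 without both cKO replicate 2 libraries and 31 with ctrl TAC 3 d replicate 3 left out too. For collagen chains the medians were 1.19 in cKO hearts and -1.25 in ctrl hearts, with 20 of 22 called, or 17 without the 2 cKO libraries and 17 without all 3. For matrix glycoproteins they were 1.50 in cKO hearts and -1.69 in ctrl hearts, with 26 of 32 called, or 22 without the 2 cKO libraries and 23 without all 3. For collagen chains and matrix glycoproteins, ctrl TAC 3 d replicate 3 had the highest sum of its group, and the ctrl medians include it. Collagen sums were 8321, 6596 and 20770 CPM in ctrl TAC 3 d, against 5954, 3890 and 4080 CPM in ctrl TAC 7 d. Matrix glycoprotein sums were 5497, 4464 and 15660 CPM, against 3960, 2663 and 2203 CPM. The cytoskeleton list had 27 of 31 called higher, or 22 without the 2 cKO libraries and 24 without all 3.

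With all libraries, the following 3 metabolic lists had medians below 0 in cKO hearts and above 0 in ctrl hearts. In each, ctrl TAC 3 d replicate 3 had the lowest sum of its group, and the ctrl medians include it. Fatty acid genes had a median of -0.57 in cKO hearts and 0.54 in ctrl hearts, and the difference was called lower for 23 of 33, or 5 without both cKO replicate 2 libraries and 19 with ctrl TAC 3 d replicate 3 left out too. Oxidative phosphorylation genes had medians of -0.69 in cKO hearts and 0.18 in ctrl hearts, with 30 of 38 called lower, or none without the 2 cKO libraries and 7 without all 3. Their sums in ctrl hearts overlapped, with 25430, 27560 and 30660 CPM at 7 d and 25870, 29430 and 16170 CPM at 3 d. Branched-chain amino acid genes had medians of -0.55 in cKO hearts and 0.42 in ctrl hearts, with 22 of 24 called lower, or 11 without the 2 cKO libraries and 13 without all 3. Proteasome subunits differed in 1 of 30 genes, with medians of -0.19 in cKO hearts and -0.11 in ctrl hearts.

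Summed collagen in cKO hearts was 1929 to 3124 CPM in sham, 2865 to 3273 CPM at 3 d and 6154 to 8265 CPM at 7 d. Fbn1 in ctrl hearts had 280, 204 and 149 CPM at 7 d and 268, 217 and 629 CPM at 3 d, so the ctrl libraries at 3 d were all above those of cKO at 3 d and the highest was replicate 3. Top2a in ctrl hearts had 20.4, 16.9 and 11.8 CPM at 7 d and 47.4, 23.9 and 35.6 CPM at 3 d, the 3 d values all above every cKO TAC 3 d library. Etfa in ctrl hearts had 393, 463 and 485 CPM at 7 d and 359, 460 and 188 CPM at 3 d.

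**Figure D5:**
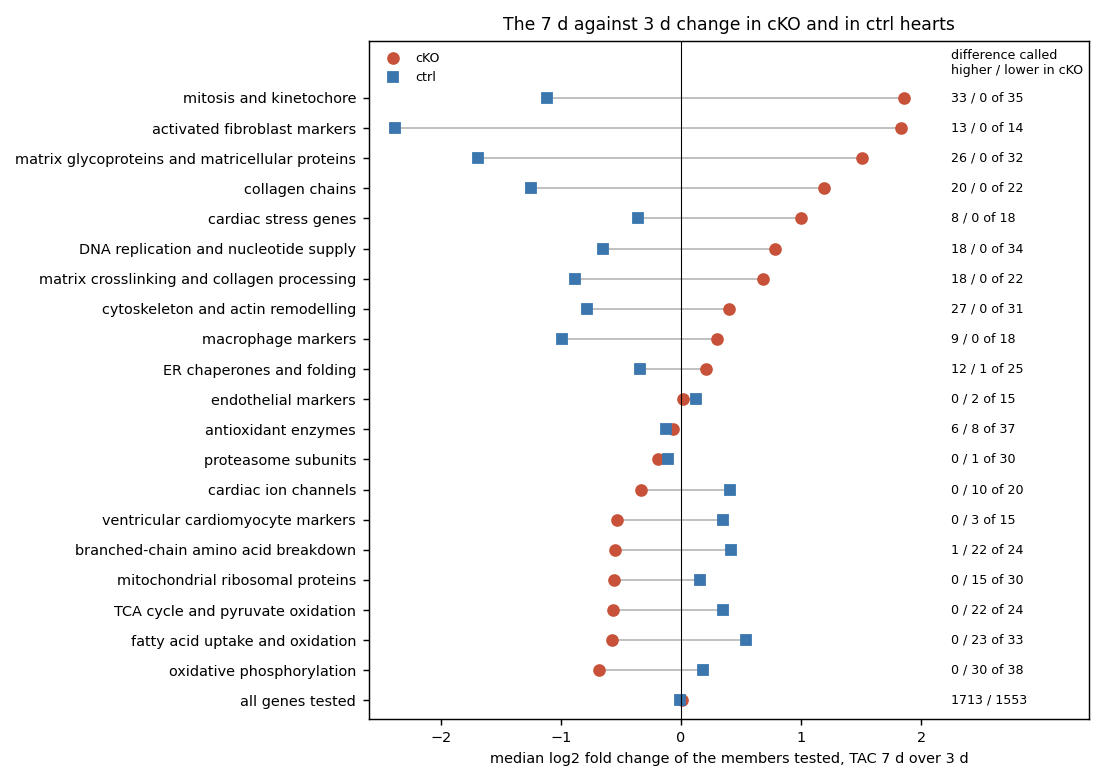
Median log2 fold change of TAC 7 d over TAC 3 d for 20 gene lists and all genes in cKO hearts (circles) and ctrl hearts (squares), with the number of members whose genotype difference was called higher and lower. Mitosis genes lie at 1.85 in cKO and -1.12 in ctrl hearts, and fatty acid genes at -0.57 in cKO and 0.54 in ctrl hearts.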

How the data were processed

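RNA-seq counts per gene were deposited by the authors as one table for all samples, together with gene positions and gene length. The libraries were made with the Illumina TruSeq RNA Sample Prep Kit, per the labels' protocols, and counts are not stated to use strand. Bowtie 0.12.2 and mm9 are listed in the submitters' processing notes, with no role given. The deposited positions match a GRCm38 annotation: of 54532 gene IDs in the table, 54495 are in GENCODE M21 and 53585 have the same chromosome, start and end there, so positions are given on GRCm38.

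Counts were analysed in R 4.3.3. Genes were filtered with filterByExpr, scaled by TMM and fitted with edgeR 4.0.16 (quasi-likelihood) over the 18 heart libraries in 6 groups, without a replicate block. Adjusted p-values are Benjamini-Hochberg over all 15535 genes tested, and a gene was called under 0.05. Standard errors are the log2 fold change divided by the square root of F. CPM are TMM-scaled. DESeq2 1.42.0 was an alternative, and the fitting steps were tested on simulated data. Totals of 15106975 to 18112798 counts per library set the precision, which is lowest for genes under about 1 CPM.

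The genes named were Atf4; the 8 largest rises and falls among called, named genes whose groups do not overlap and whose mean log2 CPM is 1 or more; the 6 largest in each direction called with and without both cKO replicate 2 libraries; up to 3 called members of each list by adjusted p (2 with the smallest p where none was called); and the 6 largest genotype differences in each direction. The genotype differences were taken among called, named genes with the same minimum mean over the TAC libraries of both genotypes. The text prints part of these 164 genes. Named after their values were seen were Acta1, Ankrd1, Atp2a2, Cd79a, Cdk1, Col1a1, Col1a2, Col3a1, Col4a2, Cox7a1, Fbln1, Gdf15, Kcnd2, Mcm6, Mki67, Myh6, Nppa, Nppb and Pdk1. The members and gene lists were chosen with earlier results of these data known.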

Additional observations from a re-analysis of the deposited data

Results flagged for a closer look

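The 7 d over 3 d change differed between cKO and ctrl hearts for 3266 genes (edgeR's quasi-likelihood test of the interaction, adjusted p under 0.05). Differences were ranked among called, named genes whose mean log2 CPM was 1 or more. The largest, cKO minus ctrl on the log2 scale, were 14.03 for Sprr1a, 10.27 for Cthrc1, 9.94 for Fmod, 8.43 for Col8a2, 7.37 for Serpinb1a and 7.13 for Ptn.

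These 6 moved with 1 library. Sprr1a had 5.29, 2.67 and 523 CPM in ctrl TAC 3 d, with replicate 3 the high library, and the same replicate was the highest for Cthrc1, Fmod, Col8a2, Serpinb1a and Ptn. Without it the differences were 8.58 for Sprr1a, 7.68 for Cthrc1, 6.81 for Fmod, 5.46 for Col8a2, 2.99 for Serpinb1a and 3.67 for Ptn, each still called. Without both cKO replicate 2 libraries instead, Serpinb1a was not called by the same test (6.29, adjusted p = 0.0612), and the rest were. DESeq2 gave no adjusted p for Sprr1a or Serpinb1a. The level of Sprr1a in cKO TAC 3 d was 0.686, 0.225 and 0.169 CPM.

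By the same ranking, the largest differences in the other direction were -4.27 for Ppl, -4.03 for Kcnv2, -3.33 for Atcay, -3.06 for Tmem179, -3.01 for Ces1d and -2.98 for Lrg1. Each was still called without ctrl TAC 3 d replicate 3, at -3.90 for Ppl, -3.49 for Kcnv2, -3.22 for Atcay, -2.65 for Tmem179, -2.50 for Ces1d and -2.70 for Lrg1. Each was also called without both cKO replicate 2 libraries. Ces1d was not called when only the groups of the contrast were fitted (adjusted p = 0.0609 by the same test). Atcay shares 432 exon bases with Atcayos on the opposite strand, and their reads cannot be told apart.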

How the results depend on the processing

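The count of genes called between cKO TAC 7 d and cKO TAC 3 d was 3037. It stayed within 1.5 times of that with DESeq2 (3574), DESeq2 size factors (3042), library totals (3098), no filter (3365), a minimum of 10 counts (3027), the gene length offset (2367), a replicate block (2807) and the block with the length offset (2079). It was 1601 when only these 6 libraries were fitted, 551 without both replicate 2 libraries, and 1245 to 2871 as each library was left out. The 3 lowest of these were 1245 without cKO TAC 3 d replicate 1, 1339 without cKO TAC 7 d replicate 2 and 1718 without cKO TAC 3 d replicate 2.

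Whether replicate numbers pair the samples cannot be told from these values, because the deviations within a group of 3 depend on each other. Deviations of same-numbered cKO libraries correlated at 0.141, 0.226 and 0.0282. The same number was the best match for cKO TAC 7 d replicates 1 and 2. Replicate 3 correlated better with cKO TAC 3 d replicate 1 (0.0799). For ctrl hearts the count was 2293, with 39 when only their libraries were fitted, 1400 with the block and length offset, and 523 to 3132 as single libraries were left out (523 without ctrl TAC 7 d replicate 2, 811 without ctrl TAC 3 d replicate 3). For the genotype difference it was 3266, with 1316 from its own groups alone, 1149 without both replicate 2 libraries, 1270 without ctrl TAC 3 d replicate 3 too, and 1758 to 4465 as single libraries were left out.

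For cKO TAC 3 d against sham the count was 0, with 30 by DESeq2, 219 with no filter and 0 to 6 as single libraries were left out. For cKO TAC 7 d against sham it was 3380, with 1558 without both replicate 2 libraries and 1353 to 2900 as single libraries were left out. With library totals the medians of the glycolysis and antioxidant lists changed sign, as did those of several other lists with small medians. Among them were the serine and one-carbon list (-0.04 to 0.11), the aminoacyl-tRNA synthetases (-0.01 to 0.15) and the autophagy and atrophy list (-0.13 to 0.03). Without both replicate 2 libraries, 100 of 176 gene results lost their call, and the cause was not tested. The 176 hold 12 genotype differences, where only Serpinb1a lost its call. The rest are the 164 named genes between cKO TAC 7 d and cKO TAC 3 d, of which only 150 had a call to lose.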

Other observations

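Of 18 circadian clock genes, 5 were called lower in cKO TAC 7 d than in cKO TAC 3 d hearts and none higher, by edgeR's quasi-likelihood test. The counts were 2 higher and 6 lower by DESeq2, and 2 higher and 3 lower with library totals. Per2, a repressor of the clock, fell by 1.00 ± 0.25 on the log2 scale (adjusted p = 0.0123), and Cry1, its partner, by 0.96 ± 0.26 (adjusted p = 0.0198). None of the 18 was called without both replicate 2 libraries. The hour at which hearts were taken is not given in the labels, and its part was not tested. Of 11 retinoic acid genes tested, 3 were called higher and none lower. Aldh1a2, an enzyme that makes retinoic acid, rose by 1.57 ± 0.46 (adjusted p = 0.0254), and none of the 11 was called without both replicate 2 libraries.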
